A study of Mus musculus with 6 samples.

Results

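The 5 genes of the NF-kB transcription factor family and 5 genes whose products hold it in check were measured in MC38, a mouse colon adenocarcinoma line grown in DMEM. The members were taken by gene symbol, and all 10 were found among the 24181 genes listed. The labels describe MC38 cells expressing STING-N153S, a constitutively active form of the innate immune adaptor STING, and parental MC38 cells of wild-type genotype, with 3 samples in each of the 2 groups. Samples with STING-N153S were not analysed here, because no label tied single columns of the count table to them, so the values below are those of the 3 parental libraries and no difference between the groups is given. The annotation deposited with the table lists them as biological replicates, but no label says whether each was a culture of its own, so the spread between them may be technical.

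NF-kB is a dimer of Rel-homology proteins that waits in the cytoplasm bound to inhibitors of the IkB family. When cells are stimulated, through STING among other routes, the IKK kinases mark the IkB protein for destruction and the dimer enters the nucleus. Several genes of the inhibitors and subunits are themselves targets of NF-kB, so that the pathway limits and renews itself. Rela, Relb and Rel encode the subunits with a transactivation domain, and Nfkb1 and Nfkb2 encode the precursors p105 and p100, which are processed to p50 and p52. Nfkbia, Nfkbib and Nfkbie encode the cytoplasmic inhibitors IkB alpha, beta and epsilon, Nfkbiz the nuclear protein IkB zeta, which can also act as a coactivator, and Tnfaip3 the ubiquitin-editing enzyme A20.

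The sites that NF-kB binds, kB sites, were looked for in the members' own promoters, because feedback through such sites is the known wiring of this gene family. RefSeq promoter windows of GRCm38.p6, each running from 250 bases before to 50 bases after a gene's start, were matched for 7 of the 10 members, which together have 10 windows. Nfkb1, Relb and Nfkbiz had no window and were not searched. The degenerate kB consensus, searched on both strands, was present in 7 of these 10 windows and in 4.51% of all 32851 windows. Counted by gene, that is 5 of the 7 members, Nfkb2, Rel, Nfkbia, Nfkbie and Tnfaip3, beside 5.14% of all 27025 genes, and these letters were not in the windows of Rela and Nfkbib. A second motif, GGGANTTNCC, which is close to the consensus and overlaps it at every site shown here that holds both, was present in 5 of the 10 windows and in 1.20% of all windows. These windows are rich in G and C, with a median GC content of 62.8% against 52.7% over all windows, and the part of base composition in the shares was not tested. Windows of the same gene can overlap, and 1 Nfkb2 site lies in 2 of its windows. The sequences below show the consensus matches that also hold the second motif, with 1 further match each from Nfkbie and Tnfaip3. They run 5′ to 3′ on the gene's strand, and capitals mark the match, or 2 overlapping matches run together.
Nfkbia: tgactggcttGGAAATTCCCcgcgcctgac
Nfkb2, upstream window: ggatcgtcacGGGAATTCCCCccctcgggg
Nfkb2, downstream window: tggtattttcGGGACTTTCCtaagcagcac
Rel: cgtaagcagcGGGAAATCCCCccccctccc
Nfkbie: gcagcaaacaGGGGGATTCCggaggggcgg
Tnfaip3: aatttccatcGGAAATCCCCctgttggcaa

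The Nfkbia sequence lies at chr12:55492657-55492686 on the minus strand, and its match begins 29 bases before the start. The Nfkb2 sequences lie at chr19:46304688-46304717 and chr19:46305695-46305724 on the plus strand, the upstream match 39 bases before a start and the downstream match 11 bases after one start and 225 bases before another. The Rel sequence, at chr11:23771042-23771071 on the minus strand, begins its match 92 bases before the start. The Nfkbie sequence, at chr17:45555584-45555613 on the plus strand, has its match 106 bases before the start, and that of Tnfaip3, at chr10:19015403-19015432 on the minus strand, has it 12 bases before the start. Nfkb2 had the most distinct sites, with 4, followed by Tnfaip3 with 2. Both genes have more windows than the other matched members, so more of their sequence was searched. A match describes letters in a window and does not show that the factor binds there.

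RNA was read from the 3′ end of transcripts, so that a long and a short transcript each give fragments from one end, and levels are given as CPM, the counts of a gene for each 1000000 counts of its library. Parental replicates 1 to 3 held 3358908, 4020023 and 3210024 counts. Pairs of libraries differed in 61 to 274 of the 11063 to 11126 genes tested (chi-square test of their counts, Benjamini-Hochberg adjusted). Of these genes, 0 were members. The label of colon adenocarcinoma was not matched by epithelial markers. Of 12 listed, 5 were analysed (Krt8, Krt19, Vil1, Lgals4 and Cdx1), and they summed to 0.249 to 0.595 CPM per library. The others have no entry in the deposited counts, and the same holds for every gene not analysed in the lists below. All 6 mesenchymal genes listed were at 1 CPM or more, with Vim at 3058 ± 176 CPM (SD, n = 3). Of the haematopoietic markers, 5 of 10 were analysed and summed to 22.4 to 23.5 CPM, nearly all of it Cd14, while the pan-leukocyte gene Ptprc had 1 count in all. All 7 fibroblast genes listed were analysed and summed to 173 to 197 CPM, led by Col3a1 at 115 ± 8.80 CPM and Dcn at 52.1 ± 5.48 CPM (SD, n = 3). Only 4 of the 7 reached 1 CPM, the others of these being Pdgfra at 12.8 CPM and Col1a1 at 3.58 CPM. Col1a2, Pdgfrb and Lum averaged 0.991, 0.667 and 0.0829 CPM. The 3 endothelial markers analysed of 4 summed to 0 to 0.595 CPM.

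The members covered a wide range of levels in parental MC38 cells, and 1 inhibitor, Nfkbia, was counted above every other member in all 3 libraries. All 10 members averaged 1 CPM or more, against 49.5% of all listed genes. A mean of 10 CPM was reached by 6 members, against 31.2% of listed genes, and 100 CPM by 2, against 8.54%. The members were chosen with earlier results of these data known, and the listed genes include those without a count. These shares are therefore a description and not a test. The median member stood at 19.8 CPM, beside a median of 22.2 CPM over the 11118 genes with enough counts to be tested for variation and 3.14 CPM over the 19798 genes with any count.

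**Figure D1:**
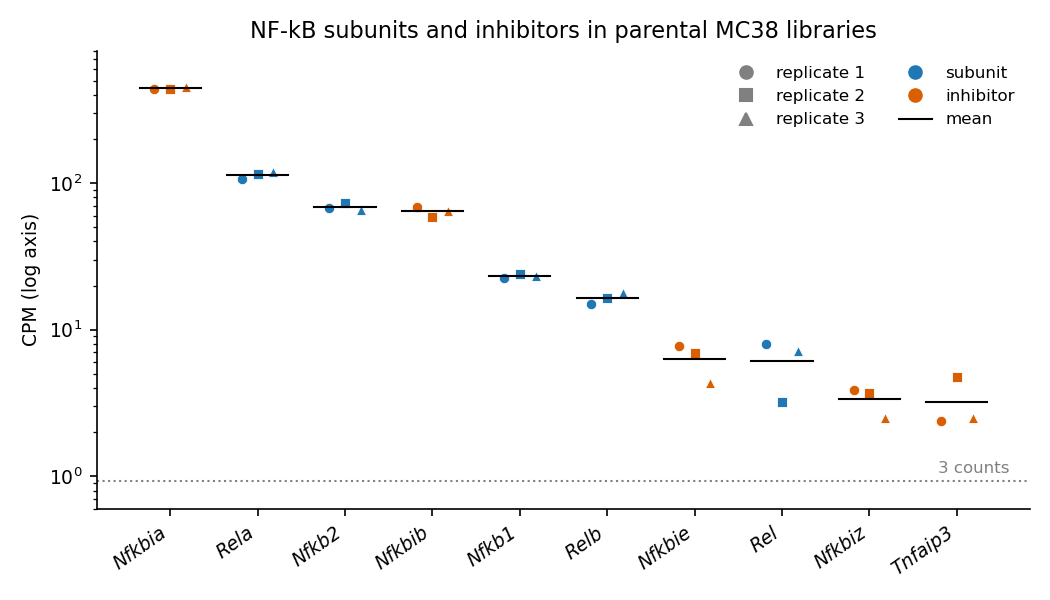
Level of each member in the 3 parental libraries, in CPM on a log axis, with subunits in blue, inhibitors in orange, 1 symbol per replicate and a bar at the mean. The members fall from Nfkbia at a mean of 444 CPM to Tnfaip3 at 3.20 CPM, and the dotted line marks 3 counts in the shallowest library (0.935 CPM).

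Among the subunits, Rela stood highest. Rela, which encodes p65, the main transactivating subunit (chromosome 19, 5637483 to 5648130, plus strand, GENCODE M21 on GRCm38), had 356, 464 and 380 counts in replicates 1 to 3. These are 106, 115 and 118 CPM, and the 3 libraries averaged 113 ± 6.47 CPM (SD, n = 3). The spread was small in all 3 libraries, with a coefficient of variation of 5.71% where counting alone gives 5.02%.

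The other transactivating subunits were far lower. Relb, the partner of p52 in the non-canonical pathway (chromosome 7, 19606217 to 19629438, minus strand), had 50, 66 and 57 counts, or 14.9, 16.4 and 17.8 CPM, and the 3 libraries averaged 16.4 ± 1.44 CPM (SD, n = 3). Rela exceeded Relb at 7.12, 7.03 and 6.67 to 1 in replicates 1 to 3. That ratio was 6.94 ± 0.24 (SD, n = 3). Counting alone gives Relb a coefficient of variation of 13.2%, against 8.78% seen. The closeness of the 3 ratios is thus no measure of stability. The pooled counts gave an exact 95% interval from 5.91 to 8.18, which like all intervals here covers counting error only. Rel, which encodes c-Rel, a subunit best known from lymphocytes (chromosome 11, 23736847 to 23770970, minus strand), had 27, 13 and 23 counts, or 8.04, 3.23 and 7.17 CPM. Its mean was 6.15 ± 2.56 CPM (SD, n = 3), with replicate 2 low and the others close to each other. The Rela to Rel ratio ran accordingly from 13.2 in replicate 1 and 16.5 in replicate 3 to 35.7 in replicate 2. Over the pooled counts, 1200 against 63, it was 19.0 with an interval from 14.8 to 24.9. That interval is for the pooled ratio, and the counting error of the ratio in each library is wider.

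The genes of the 2 precursors differed from each other. Nfkb2, which encodes p100 (chromosome 19, 46304320 to 46312385, plus strand), had 227, 296 and 209 counts, or 67.6, 73.6 and 65.1 CPM, and the 3 libraries averaged 68.8 ± 4.38 CPM (SD, n = 3). Nfkb1, which encodes p105 (chromosome 3, 135584655 to 135691547, minus strand), had 76, 96 and 75 counts, or 22.6, 23.9 and 23.4 CPM, and the 3 libraries averaged 23.3 ± 0.63 CPM (SD, n = 3). The ranges of these genes did not overlap. Counting alone gives Nfkb1 a coefficient of variation of 11.1%, against 2.71% seen. The closeness of its 3 values, and of ratios taken with them, is thus no measure of stability. Nfkb2 exceeded Nfkb1 at 2.99, 3.08 and 2.79 to 1 in replicates 1 to 3, with a pooled interval from 2.56 to 3.44. The canonical pair thus had unequal counts, with a Rela to Nfkb1 ratio of 4.86 ± 0.19, and so had the non-canonical pair, with an Nfkb2 to Relb ratio of 4.23 ± 0.49 (SD, n = 3). The count of Nfkb2 has a limit: its exons share 299 bases within the last 1000 bases of the gene with Psd, a gene on the opposite strand with 20, 26 and 24 counts, and neither labels nor file headers say whether the counting used strand.

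Of all subunit counts, Rela took 49.7% and Nfkb2 30.3% over the 3 libraries together, with exact 95% intervals from 47.7% to 51.7% and from 28.5% to 32.2%. Nfkb1 took 10.2%, Relb 7.16% and Rel 2.61%. Between libraries the share of Nfkb1 ran from 10.1% to 10.3% and that of Rel from 1.39% to 3.67%. As the CPM of Nfkb1 lay closer together than counting alone gives, its narrow range of shares does not show that it is steadier than Rel. The summed level of the subunits was 219, 233 and 232 CPM in replicates 1 to 3.

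The inhibitors were dominated by Nfkbia. Nfkbia (chromosome 12, 55489410 to 55492647, minus strand), whose product is both degraded on stimulation and resynthesised by NF-kB, had 1479, 1757 and 1460 counts. These are 440, 437 and 455 CPM, and the 3 libraries averaged 444 ± 9.46 CPM (SD, n = 3), which placed it 409th of all genes by level. The 3 values were close, with a coefficient of variation of 2.13% where counting alone gives 2.54%. Nfkbia exceeded Rela, the most counted subunit, at 4.15, 3.79 and 3.84 to 1 in replicates 1 to 3, and the pooled interval ran from 3.67 to 4.17.

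Nfkbib (chromosome 7, 28758251 to 28767512, minus strand), the IkB beta gene, had 230, 237 and 208 counts, or 68.5, 59.0 and 64.8 CPM, and the 3 libraries averaged 64.1 ± 4.80 CPM (SD, n = 3). Replicate 2 was the lowest here, and the Nfkbia to Nfkbib ratio was 6.43, 7.41 and 7.02 in replicates 1 to 3. Its exons share 314 bases within the last 1000 bases of the gene with Ccer2 on the opposite strand, a gene not analysed here, and 42 bases elsewhere with Sirt2. Nfkbie (chromosome 17, 45555703 to 45563169, plus strand), the IkB epsilon gene, had 26, 28 and 14 counts, or 7.74, 6.97 and 4.36 CPM, and the 3 libraries averaged 6.36 ± 1.77 CPM (SD, n = 3). Replicate 3 was the low one. The Nfkbia to Nfkbie ratio was 56.9 and 62.8 in replicates 1 and 2 and 104 in replicate 3, with a pooled interval from 54.4 to 89.1.

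The last 2 members were counted least. Nfkbiz (chromosome 16, 55811375 to 55838899, minus strand) had 13, 15 and 8 counts, or 3.87, 3.73 and 2.49 CPM, and the 3 libraries averaged 3.36 ± 0.76 CPM (SD, n = 3). Tnfaip3 (chromosome 10, 19000910 to 19015657, minus strand) had 8, 19 and 8 counts, or 2.38, 4.73 and 2.49 CPM, and the 3 libraries averaged 3.20 ± 1.32 CPM (SD, n = 3). Replicate 2 held more Tnfaip3 counts than the other libraries together, and its Nfkbiz CPM was close to that of replicate 1. Both genes were above 3 counts, which is 0.893, 0.746 and 0.935 CPM in replicates 1 to 3, in every library. The Nfkbia to Tnfaip3 ratio, between a pair of inhibitors that are both induced by NF-kB in other settings, was 185, 92.5 and 182.5 in replicates 1 to 3. The interval of the pooled counts ran from 96.3 to 193 and does not cover the counting error of each library.

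Nfkbia thus took 85.2% of all inhibitor counts, with an interval from 84.3% to 86.2%, and Nfkbib took 12.3%. Nfkbie, Nfkbiz and Tnfaip3 took 1.23%, 0.653% and 0.635%. Summed over the 5 genes, the inhibitors stood at 523, 511 and 529 CPM in replicates 1 to 3, and they exceeded the summed subunits at 2.39, 2.20 and 2.28 to 1. The ratio was 2.29 ± 0.094 (SD, n = 3) and rested on Nfkbia. Without that gene, a choice made after the data were seen, the other inhibitors stood below the subunits, at 0.339 ± 0.033 to 1 (SD, n = 3). The ratio of the 3 cytoplasmic IkB genes to the 3 transactivating subunits was 3.80 ± 0.19 (SD, n = 3). These are ratios of RNA counts and say nothing of the amounts of protein.

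**Figure D2:**
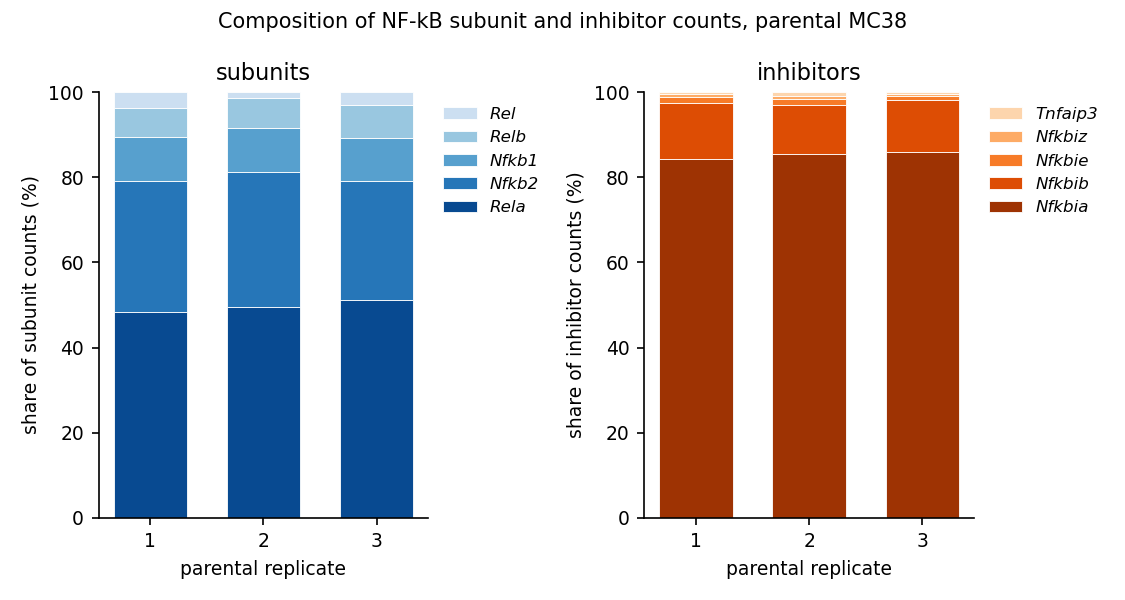
Share of each subunit in the counts of the 5 subunits (left) and of each inhibitor in those of the 5 inhibitors (right), in percent, 1 bar per parental replicate. Rela takes 48.4% to 51.1% of subunit counts and Nfkbia 84.2% to 86.0% of inhibitor counts.

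In the order of levels, the 9 pairs of neighbours fell into those with separate and those with overlapping ranges. The ranges of Nfkbia and Rela, Rela and Nfkb2, Nfkbib and Nfkb1, Nfkb1 and Relb, and Relb and Nfkbie did not overlap, and the first of each pair had more counts in 3 of 3 libraries. Those of Nfkb2 and Nfkbib did overlap, with a pooled ratio of 1.08 and an interval from 0.975 to 1.21. The neighbours Nfkbie and Rel (1.08, from 0.755 to 1.55) and Nfkbiz and Tnfaip3 (1.03, from 0.628 to 1.69) likewise could not be put in order. For Rel and Nfkbiz the ranges overlapped because of replicate 2, where Rel was below Nfkbiz, although the pooled ratio was 1.75 with an interval from 1.14 to 2.71. If the counts did depend on transcript length, division by the longest coding transcript would exchange the places of Nfkb2 and Nfkbib and of Nfkb1 and Relb, and the other 6 members would hold theirs.

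**Figure D3:**
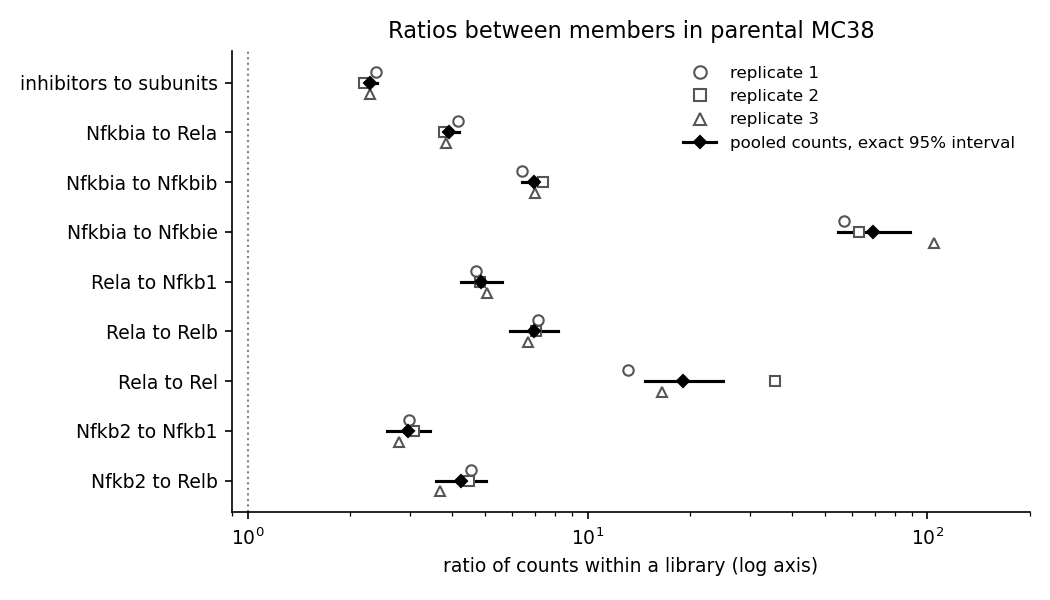
Ratios of counts within a library, on a log axis, for 9 pairs or groups of members, with open symbols for the 3 parental replicates and a diamond with its exact 95% interval for the pooled counts. Rela to Rel ran from 13.2 to 35.7, Nfkbia to Nfkbie from 56.9 to 104 and Rela to Relb from 6.67 to 7.12. Each interval is that of the pooled ratio, and the counting error of a ratio in any of the libraries is wider.

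Variation of the members between the parental libraries was set against counting noise. In the chi-square test, with p adjusted by Benjamini-Hochberg over 11118 genes, 0 of the 10 members varied at an adjusted p under 0.05, where 2.8% of all genes tested did. At an unadjusted p under 0.05 it was 1 member, against 13.2% of all genes, and exact binomial tests between pairs of libraries likewise called 0 members after adjustment. That 1 member was Rel, with an unadjusted p of 0.0146 and an adjusted p of 0.210 by the chi-square test, and adjusted p-values from 0.216 to 0.913 under the alternatives. Its coefficient of variation was 41.6%, where counting alone gives 21.9%. Without replicate 2 its mean was 7.60 CPM and its unadjusted p 0.622. The adjusted p of the remaining members lay between 0.575 for Tnfaip3 and 0.991 for Nfkb1. For Nfkbie, Nfkbiz and Tnfaip3, with 35 to 68 counts over the 3 libraries, only large differences between libraries would be detectable at this depth.

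The other genes of the pathway were read from 5 further lists, which were counted without a test of the list. Beside the counts of each list, 49.5% of all listed genes averaged 1 CPM or more. For 10 CPM the share was 31.2% and for 100 CPM 8.54%. Of 16 further IkB family members and regulators, 15 reached 1 CPM and 10 reached 10 CPM. The highest were Tax1bp1, an adaptor that works with A20, with 233 ± 7.95 CPM, and Commd1, which promotes the turnover of Rela, with 204 ± 16.4 CPM (SD, n = 3). They were followed by Rnf11, another partner of A20, with 193 ± 24.9 CPM, and the deubiquitinase Otulin with 88.2 ± 7.63 CPM (SD, n = 3). Other genes of the list for partners of A20, named after their values were seen, were lower than these. Itch had 32.4 CPM, Tnip2 7.45 CPM and Tnip1 6.16 CPM, beside 3.20 CPM for Tnfaip3. The nuclear IkB genes Bcl3, at 4.58 ± 1.32 CPM, and Nfkbid, at 1.57 ± 0.56 CPM (SD, n = 3), both named after their values were seen, stood near Nfkbiz. Tnip3 had 0 counts, which allows up to 0.935 CPM in the shallowest library.

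Of 16 genes of the IKK complex and upstream kinases, 14 reached 1 CPM and 0 reached 100 CPM, so that none reached the level of Rela. The list was led by the interleukin-1 receptor kinase gene Irak1 with 57.1 ± 6.74 CPM and the TBK1 adaptor gene Azi2 with 38.5 ± 4.34 CPM, ahead of the IKK alpha gene Chuk with 30.7 ± 3.88 CPM and a second TBK1 adaptor gene, Tank, with 29.1 ± 2.95 CPM (SD, n = 3). The IKK beta gene Ikbkb, at 13.9 ± 0.77 CPM, and the NEMO gene Ikbkg, at 12.9 ± 1.57 CPM (SD, n = 3), were named after their values were seen. All 18 TRAF, cIAP and ubiquitin ligase genes reached 1 CPM and 12 reached 10 CPM. Highest there were Rbck1, a subunit of the linear ubiquitin ligase, with 83.7 ± 4.71 CPM, and Ube2n, a ubiquitin-conjugating enzyme, with 36.0 ± 1.65 CPM (SD, n = 3). Next were the receptor adaptors, Traf2 with 34.1 CPM (27.7, 35.1 and 39.6 CPM in replicates 1 to 3) and Traf3 with 29.5 ± 5.12 CPM (SD, n = 3).

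Of the 23 ligands, receptors and adaptors listed, 19 were analysed and 13 were at 1 CPM or more. Those were led by the TWEAK receptor gene Tnfrsf12a with 615 ± 21.5 CPM and the interleukin-33 receptor gene Il1rl1 with 274 ± 10.8 CPM (SD, n = 3). The lymphotoxin beta receptor gene Ltbr, which feeds the non-canonical pathway of Nfkb2 and Relb, had 72.5 ± 3.14 CPM and the TNF receptor gene Tnfrsf1a 36.4 ± 1.47 CPM (SD, n = 3). Ltb and Tnfsf13b had 0 counts. Of 34 target genes analysed of 35, 25 reached 1 CPM and 8 reached 100 CPM. The cell cycle gene Ccnd1 had 902 ± 42.2 CPM, the stress response gene Ier3 198 ± 8.84 CPM, and the transcription factor genes Myc and Junb 170 ± 11.3 CPM and 146 ± 3.36 CPM (SD, n = 3), and all of these have other regulators too. Nfkbia, at 444 CPM, stood above every target listed except Ccnd1. The other targets at 100 CPM or more, named after their values were seen, were Ccl2 (135 CPM), Sod2 (117 CPM), Vcam1 (113 CPM) and Ptgs2 (103 CPM). Icam1, Il6, Csf2, Csf3 and Lcn2 had 0 counts, and neither labels nor file headers say how reads that match several genes were treated.

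**Figure D4:**
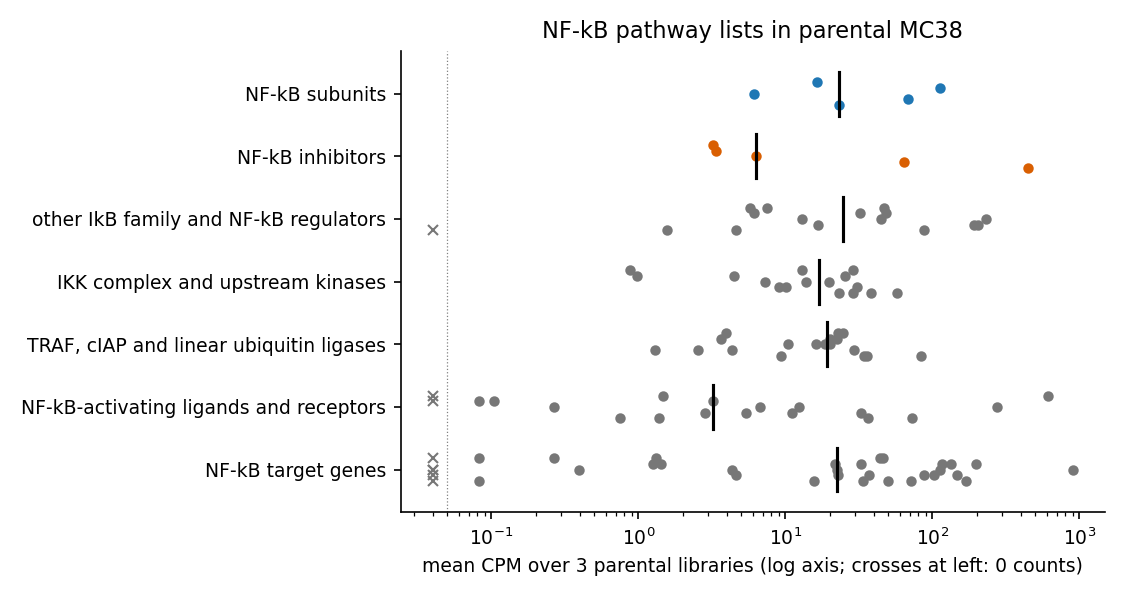
Mean CPM over the 3 parental libraries, on a log axis, of each gene in the lists of NF-kB subunits (blue), inhibitors (orange) and 5 further lists (grey), with a black bar at the median and crosses for genes with 0 counts. The median is 23.3 CPM for the subunits, 6.36 CPM for the inhibitors and 3.23 CPM for the ligands and receptors.

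Among the genes of these 5 lists, 3 varied between the parental libraries in the chi-square test (Benjamini-Hochberg adjusted), out of 79 list entries tested, where 2.8% of all genes did. Rnf11 had 206, 209 and 164 CPM in replicates 1 to 3 and an adjusted p of 0.00199. Map3k7, named after its values were seen, encodes TAK1, a kinase that activates IKK, and had 31.3, 29.6 and 15.9 CPM and an adjusted p of 0.00732. Both were low in replicate 3, the library that differed most from the others. Ccnd1 had 900, 861 and 945 CPM and an adjusted p of 0.0161.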

How the data were processed

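Bulk RNA of MC38 cells was reverse transcribed from oligo-dT primers that carry a barcode for the sample and a molecular identifier, and fragments from the 3′ ends were sequenced, per the labels' protocols. The authors deposited untrimmed whole-number counts for each gene. Per the file headers, reads were processed with Drop-seq tools 1.12, Picard 2.18.26 and STAR 2.7.5b against GRCm38 and GENCODE M25. Neither labels nor headers say whether counts were collapsed by identifier or how strand and reads matching several genes were handled, so intervals and floors cover counting error only.

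Of 9 columns, 3 belong to the parental samples, to which genotype and replicate number in the deposited annotation tie them. The 6 others, in 2 sets, outnumber the 3 STING-N153S samples, and no label says which set those are. They were not used, so the planned edgeR comparison of the groups was not run. The members and lists were chosen with earlier results of these data known.

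Counts were divided by library totals to give CPM. A chi-square test compared each gene's counts between libraries, with library sizes scaled by median ratios and an expected count of at least 5. Its p was adjusted by Benjamini-Hochberg over all genes at 0.05. The test was tried on simulated counts with planted changes and counting noise only. That trial says nothing of other spread between real libraries. Ratios have exact (Clopper-Pearson) 95% intervals. A level of 0 counts was bounded at 3 counts. All 10 members were named, with the 4 highest genes of each further list and the genes at 0 counts. Fewer than 6 samples were analysed, so no gene was named for likeness of pattern. Gene models are GENCODE M21 and promoters RefSeq, both on GRCm38. The kB consensus is the degenerate 10-base form. Alternatives used edgeR 4.0.16 and DESeq2 1.42.0 scaling. Scripts ran in Python 3.11.15 with scipy 1.17.1, and in R 4.3.3.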

Additional observations from a re-analysis of the deposited data

How the results depend on the processing

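No setting planned for the comparison of STING-N153S with parental cells could be run. No paired analysis was possible because 1 group was left to analyse. The number of members varying between libraries was 0 under all 7 alternatives run. Over all genes the number was 311, from 274 to 289 under the other scalings, filter and test, and from 61 to 274 with 1 library left out, the lowest without replicate 3. The median member, at 19.8 CPM, was 21.8 CPM when library totals excluded the 20 highest genes, and 19.5 to 20.4 CPM with 1 library left out. The ratio of inhibitors to subunits, 2.29, ran from 2.24 to 2.33 with 1 library left out and was 0.339 without Nfkbia. Of 72 alternatives for single ratios, 3 turned round, all between neighbours with overlapping ranges. With 1 library left out, Nfkb2 to Nfkbib ran from 0.996 (without replicate 2) to 1.13, Nfkbie to Rel from 0.786 (without replicate 2) to 1.56, and Nfkbiz to Tnfaip3 from 0.895 (without replicate 1) to 1.31. The low counts of Rel, Nfkbie, Nfkbiz and Tnfaip3 limit what their order and spread can show.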
